A study of Mus musculus with 6 samples.

Results

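Lgr4, Lgr5, Lgr6, Axin2, Sfrp1, Sfrp2, Frzb, Dkk3, Wif1 and Rspo2 are 10 genes of Wnt signalling: the Lgr receptors, an R-spondin that binds them, secreted Wnt modulators and a target gene of the pathway. They were chosen by name, with earlier results of these data known. All 10 were found by their Ensembl identifiers among the 39179 genes listed in each count table. All 10 had at least 1 CPM (the count scaled to the library's total on genes) in 3 or more libraries and were tested among 14723 genes.

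Their mRNA was measured in the EAR dataset, which holds RNA-seq of inner ear sensory epithelium from newborn (P0) wild-type C57Bl/6J mice of both sexes. The cochlea is the hearing organ and the vestibule the balance organ, and in both the sensory epithelium consists of hair cells and the supporting cells around them. There were 3 libraries of cochlear and 3 of vestibular epithelium, each from RNA pooled from at least 20 organs, so that no library stands for a single mouse. The methods name 20 inner ears as the source of both tissues and give 1 amount of total RNA per tissue. They do not state whether the 3 libraries of a tissue came from separate pools or from the same one. The p-values therefore measure only the spread between these libraries, which may be technical. Counts on genes were 24464483 to 29225105 in the cochlear and 25476572 to 33664793 in the vestibular libraries, and 1 CPM stood for 24.5 to 33.7 counts.

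Wnt proteins are secreted signals that bind Frizzled receptors with the co-receptors Lrp5 or Lrp6, stabilise β-catenin in the receiving cell and so switch on target genes together with TCF/LEF factors. The cell surface ligases Znrf3 and Rnf43 remove Frizzled receptors, and R-spondins, by bridging these ligases to an Lgr receptor, keep the Frizzled receptors in place and so raise the response to Wnt. Secreted Frizzled-related proteins and Wif1 bind Wnt proteins outside the cell. In the newborn cochlea, Lgr5 is known as a marker of supporting cells that can still divide and give rise to hair cells when the pathway is active.

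Of the 10 genes, 9 were differentially expressed (DE) between the tissues, 6 with higher and 3 with lower mRNA levels in the cochlea. Lgr5, Lgr6, Rspo2, Sfrp1, Sfrp2 and Dkk3 were higher in the cochlea, Lgr4, Frzb and Wif1 were higher in the vestibule, and Axin2 did not pass the test. DE was called with edgeR's quasi-likelihood test on the counts at a Benjamini-Hochberg adjusted p (FDR) of 0.05, and log2 fold changes are given as vestibule minus cochlea after TMM scaling, so that negative values are higher in the cochlea. Over all genes tested, 27.4% were called, 11.6% as higher in the cochlea and 15.8% as higher in the vestibule. These shares stand for 1711 and 2325 genes, and scaling by library size alone, which raised the median log2 fold change by 0.13, gave 1251 and 2754, while the directions and calls of the 10 genes did not change. The CPM ranges of the 2 tissues did not overlap for the same 9 genes, compared with 41.8% of all genes tested. The median absolute log2 fold change was 1.54 over the 10 genes and 0.32 over all genes tested. Since the 10 genes were chosen with earlier results of these data known, these comparisons are no test of an excess. In bulk tissue, fewer cells of a type and less RNA per cell cannot be told apart.

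**Figure D1:**
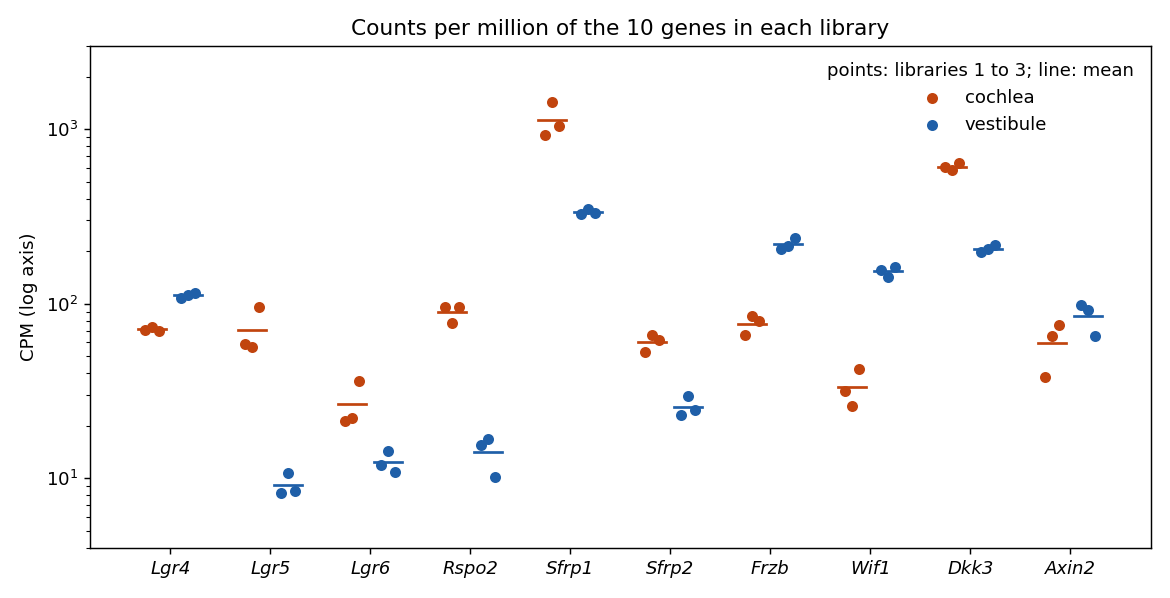
CPM (log axis) of the 10 genes in each of the 3 cochlear (red) and 3 vestibular (blue) libraries, with a line at each mean. The points of the 2 tissues are separate for every gene but Axin2, and the cochlear points of Lgr5, Lgr6, Axin2 and Wif1 are spread more widely than those of Lgr4 and Dkk3.

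**Figure D2:**
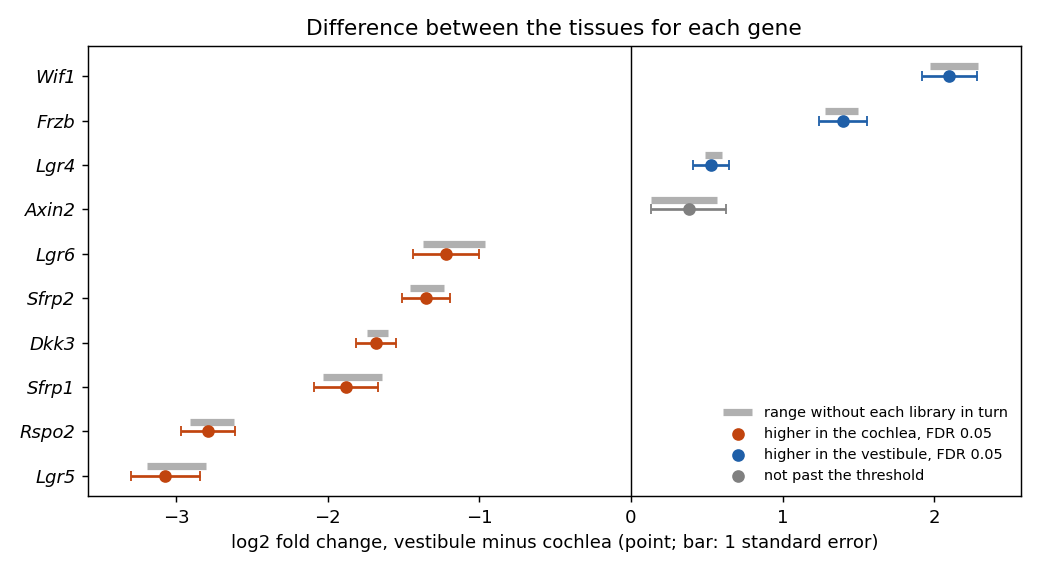
The log2 fold change of each gene (vestibule minus cochlea) with its standard error (n = 3 libraries per tissue), and in grey the range obtained when each library in turn was left out. The values run from -3.07 for Lgr5 to 2.1 for Wif1, and no grey range crosses 0.

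The 3 Lgr receptors did not share a direction. Lgr5 was 8.37-fold higher in the cochlea and Lgr6 was 2.34-fold higher there, whereas Lgr4 was 1.44-fold higher in the vestibule. All 3 are receptors of the R-spondins. Lgr5 (chr10:115450311-115587780, minus strand, GRCm38) had 59.1, 56.2 and 95.9 CPM in the cochlear libraries and 8.23, 10.7 and 8.40 CPM in the vestibular libraries. Cochlea replicate 3 was well above the other cochlear libraries, and even the lowest cochlear library was far above all vestibular ones. The log2 fold change of Lgr5 was -3.07 ± 0.23 (SE), with an adjusted p of 3.2e-05 by edgeR with Benjamini-Hochberg adjustment. On the opposite strand Lgr5 overlaps A930009A15Rik, which had 46 to 55 counts in the cochlear and 7 to 13 in the vestibular libraries, compared with 214 to 2803 for Lgr5. The strand setting of the counting is not given in the sources used here, so reads of the 2 genes may not be fully separate. The same holds for Axin2 with Gm11670 (0 to 10 counts) and Sfrp2 with Gm26771 (1 to 10 counts), which lie on their opposite strands.

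Lgr6 (chr1:134983301-135105276, minus strand) had 21.4, 22.0 and 36.2 CPM in the cochlear libraries and 11.9, 14.4 and 10.8 CPM in the vestibular libraries. Cochlea replicate 3 was again the highest, and the tissues did not overlap. For Lgr6 the log2 fold change was -1.22 ± 0.22 (SE), with an adjusted p of 0.00358 by edgeR with Benjamini-Hochberg adjustment.

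Lgr4 (chr2:109917647-110014257, plus strand), the most widely expressed of the Lgr receptors across tissues, had 70.3, 73.8 and 69.6 CPM in the cochlear libraries and 107.6, 112.4 and 114.8 CPM in the vestibular libraries. Libraries of a tissue were close to each other, with the highest at 1.06 times the lowest in the cochlea and 1.07 times in the vestibule. The log2 fold change of Lgr4 was 0.53 ± 0.12 (SE), with an adjusted p of 0.0124 by edgeR with Benjamini-Hochberg adjustment. It was the smallest of the 9 differences called, and without vestibule replicate 2 it was 0.55 with an adjusted p of 0.0558 by the same test and no longer passed.

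Levels of different genes were compared as RPKM, the count scaled to the length of the gene and to the library. In the cochlea, Lgr4 held 51.2%, 52.6% and 38.5% of the summed RPKM of the 3 receptors, and in the vestibule 82.4%, 79.8% and 84.2%. The share of Lgr5 was 26% ± 3.9 (SD, n = 3) in cochlear and 3.84% ± 0.457 in vestibular libraries, and that of Lgr6 was 26.5% ± 3.92 and 14% ± 1.79. All cochlear shares lay apart from all vestibular shares for each receptor, and the two-sided exact permutation test gave p = 0.1 for each, the smallest value that 3 against 3 libraries allow. The summed RPKM itself was 26 ± 4.13 (SD, n = 3) in cochlear and 23.1 ± 0.858 in vestibular libraries, and these ranges overlapped.

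**Figure D3:**
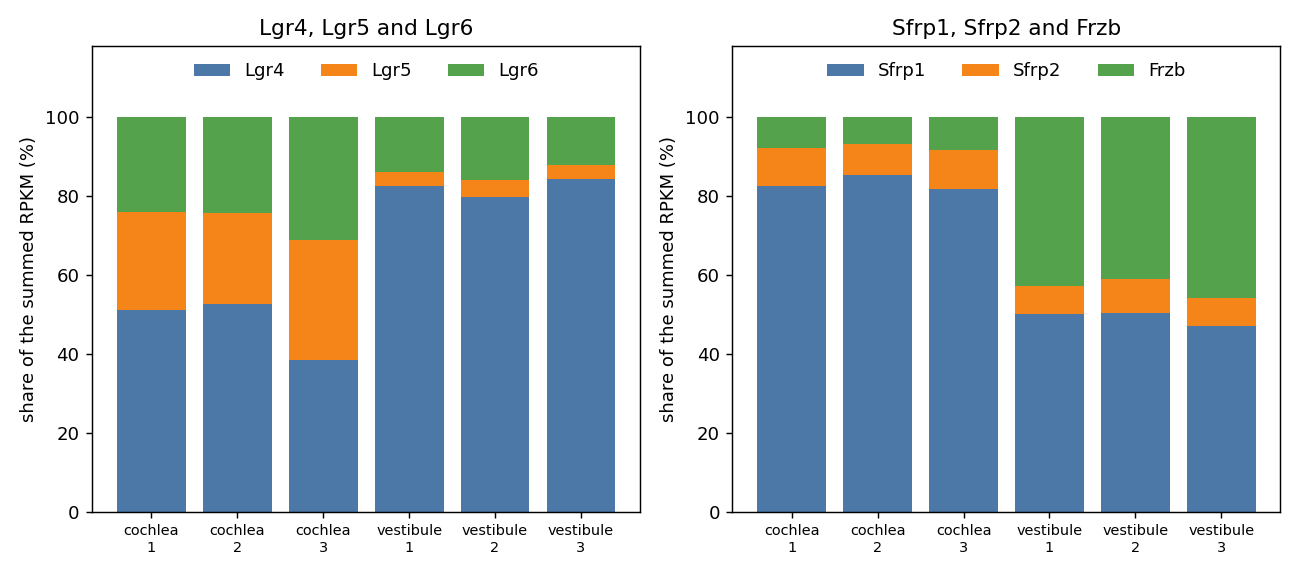
Share (%) of each receptor in the summed RPKM of Lgr4, Lgr5 and Lgr6 (left) and of each secreted Frizzled-related protein in that of Sfrp1, Sfrp2 and Frzb (right), for each library. Lgr4 takes at least 79.8% of every vestibular bar and at most 52.6% of a cochlear one, and Frzb takes at most 8.37% of a cochlear and at least 41.1% of a vestibular one.

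Windows of 250 bases before the RefSeq start site (GRCm38.p6) were found for 6 of the 10 genes, Lgr4, Lgr6, Sfrp2, Frzb, Wif1 and Axin2. Those of Lgr4 and Lgr6 are shown because these homologous receptors differed in opposite directions, and that of Axin2 because it is the target gene that did not pass the test. In these 3 genes the RefSeq start is also the start of the gene in GENCODE vM21. The sequences are written 5′ to 3′ on the strand of the gene, at chr2:109917397-109917646 (plus) for Lgr4, chr1:135105277-135105526 (minus) for Lgr6 and chr11:108920099-108920348 (plus) for Axin2, and capitals mark each CpG dinucleotide.
Lgr4: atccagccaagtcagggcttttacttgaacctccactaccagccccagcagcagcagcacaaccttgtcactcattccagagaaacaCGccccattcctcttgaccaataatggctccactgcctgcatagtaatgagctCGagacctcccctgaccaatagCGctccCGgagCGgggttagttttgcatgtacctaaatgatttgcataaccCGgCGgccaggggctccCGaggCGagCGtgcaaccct
Lgr6: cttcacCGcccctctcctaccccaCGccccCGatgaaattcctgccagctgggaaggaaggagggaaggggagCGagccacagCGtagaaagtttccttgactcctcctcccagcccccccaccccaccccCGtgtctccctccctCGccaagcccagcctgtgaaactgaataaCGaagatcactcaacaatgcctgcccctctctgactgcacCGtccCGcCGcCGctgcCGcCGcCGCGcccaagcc
Axin2: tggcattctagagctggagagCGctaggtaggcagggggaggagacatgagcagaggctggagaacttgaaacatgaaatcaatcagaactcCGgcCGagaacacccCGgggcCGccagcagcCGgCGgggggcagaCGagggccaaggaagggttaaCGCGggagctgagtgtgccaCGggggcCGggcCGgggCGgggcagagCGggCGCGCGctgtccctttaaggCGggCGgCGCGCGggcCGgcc
The Lgr4 window held 10 CpG, the Lgr6 window 16 and the Axin2 window 24, and the other 3 windows held 16 to 21. The median over 32851 windows of the same length was 6, and 37.8% of these windows held 10 or more. The GC content was 55.6% for Lgr4, 65.2% for Lgr6 and 69.2% for Axin2, beside a median of 52.4% over all windows. The core of the TCF/LEF motif, searched as CTTTGA and its reverse complement TCAAAG, was found in 13.8% of all windows and in 1 of the 6, that of Frzb. There it lay 95 bases before the RefSeq start on the opposite strand, and this start is 229 bases inside the gene as GENCODE draws it. A match is a description of the letters and not of a binding site.

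Rspo2, the R-spondin among the 10 genes (chr15:43020794-43170826, minus strand), was 6.92-fold higher in the cochlea. It had 96.1, 77.4 and 95.6 CPM in the cochlear libraries and 15.4, 16.7 and 10.2 CPM in the vestibular libraries. Every cochlear library was several-fold above every vestibular one. For Rspo2 the log2 fold change was -2.79 ± 0.18 (SE), with an adjusted p of 1.45e-05 by edgeR with Benjamini-Hochberg adjustment.

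The 3 secreted Frizzled-related proteins among the 10 genes also went both ways. They carry a domain like that of the Frizzled receptors, with which they bind Wnt proteins. Sfrp1 was 3.68-fold and Sfrp2 2.55-fold higher in the cochlea, whereas Frzb was 2.63-fold higher in the vestibule. Sfrp1 (chr8:23411502-23449632, plus strand) had 923.5, 1433.1 and 1043.1 CPM in the cochlear and 327.1, 351.2 and 329.3 CPM in the vestibular libraries. The vestibular libraries were nearly level, while cochlea replicate 2 was 1.55 times the lowest cochlear library. The log2 fold change of Sfrp1 was -1.88 ± 0.21 (SE), with an adjusted p of 0.000244 by edgeR with Benjamini-Hochberg adjustment.

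Sfrp2 (chr3:83766321-83774316, plus strand) had 52.6, 66.4 and 61.8 CPM in the cochlear and 23.0, 29.5 and 24.7 CPM in the vestibular libraries, without overlap. Its log2 fold change was -1.35 ± 0.16 (SE), with an adjusted p of 0.000384 by edgeR with Benjamini-Hochberg adjustment. Frzb, also named Sfrp3 (chr2:80411970-80447625, minus strand), had 66.0, 84.6 and 79.1 CPM in the cochlear and 206.4, 212.8 and 237.6 CPM in the vestibular libraries. All vestibular libraries were above all cochlear ones. Its log2 fold change was 1.40 ± 0.16 (SE), with an adjusted p of 0.000285 by the same test.

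Within the summed RPKM of these 3 genes, Sfrp1 held 83.2% ± 1.79 (SD, n = 3) in cochlear and 49.1% ± 1.83 in vestibular libraries, and Frzb held 7.71% ± 0.819 and 43.2% ± 2.38. The exact permutation test gave p = 0.1 for both, the smallest value possible. The share of Sfrp2 was 9.14% ± 0.976 and 7.64% ± 0.819, with overlapping libraries and p = 0.2 by the same exact permutation test. The summed RPKM was 311.4 ± 66.6 (SD, n = 3) in cochlear and 156.7 ± 6.17 in vestibular libraries, without overlap.

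Wif1, a secreted protein that binds Wnt outside the cell (chr10:121033960-121100650, plus strand), was 4.29-fold higher in the vestibule, the largest of the 3 differences in that direction. It had 31.4, 25.9 and 42.5 CPM in the cochlear and 157.0, 141.9 and 163.2 CPM in the vestibular libraries. The highest cochlear library, replicate 3, remained far below all vestibular libraries. For Wif1 the log2 fold change was 2.1 ± 0.18 (SE), with an adjusted p of 7.13e-05 by edgeR with Benjamini-Hochberg adjustment.

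Dkk3, a secreted member of the Dickkopf family whose own effect on Wnt is less settled than that of Dkk1 (chr7:112116017-112159057, minus strand), was 3.21-fold higher in the cochlea. It had 609.9, 586.0 and 637.6 CPM in the cochlear and 197.1, 205.9 and 216.6 CPM in the vestibular libraries. Libraries of a tissue were within 1.09 times of each other in the cochlea and 1.1 times in the vestibule. For Dkk3 the log2 fold change was -1.68 ± 0.13 (SE), with an adjusted p of 4.24e-05 by edgeR with Benjamini-Hochberg adjustment.

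Axin2, a scaffold of the complex that degrades β-catenin and a common target gene of the pathway (chr11:108920349-108950783, plus strand), did not pass the test. It had 37.9, 64.9 and 76.0 CPM in the cochlear and 98.0, 92.3 and 64.9 CPM in the vestibular libraries. The ranges of the tissues overlapped, with vestibule replicate 3 below cochlea replicate 3, and the highest cochlear library had 2 times the CPM of the lowest. For Axin2 the log2 fold change was 0.38 ± 0.25 (SE), with a 95% interval of -0.19 to 0.95 and an adjusted p of 0.299 by edgeR with Benjamini-Hochberg adjustment. The interval includes both 0 and the log2 fold change of Lgr4, 0.53. Leaving out each library in turn gave log2 fold changes of 0.13 to 0.57, none of which passed.

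By mean log2 RPKM, the order of the 10 genes differed between the tissues. In the cochlea, Sfrp1 (7.99 ± 0.33, SD, n = 3) and Dkk3 (7.51 ± 0.06) stood above the rest, followed by Sfrp2 (4.80), Rspo2 (4.75), Frzb (4.56), Wif1 (3.75), Lgr4 (3.60), Axin2 (3.38), Lgr6 (2.76) and Lgr5 (2.74). Neighbours in this order overlapped in their libraries from Sfrp2 to Frzb and from Wif1 to Lgr5, so their order is not resolved there by the ranges. Within every cochlear library, though, Sfrp2 was above Frzb and Axin2 above Lgr6. In the vestibule, Sfrp1 (6.27 ± 0.06, SD, n = 3) was followed by Frzb (6.08), Wif1 (5.99) and Dkk3 (5.94), then by Lgr4 (4.25), Axin2 (3.93), Sfrp2 (3.57), Rspo2 (2.06), Lgr6 (1.69) and Lgr5 (-0.18). There Frzb and Wif1, Wif1 and Dkk3, Axin2 and Sfrp2, and Rspo2 and Lgr6 overlapped, and the other neighbours did not. Sfrp1 was thus the first and Lgr5 the last in mean level in both tissues, although in the cochlea Lgr5 could not be told from Lgr6.

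The spread within a tissue was not shared by all genes. Cochlea replicate 3 had the highest CPM of its tissue for 5 of the 10 genes, Lgr5, Lgr6, Axin2, Dkk3 and Wif1, and cochlea replicate 2 for 4. Its level was 1.71 times the lowest cochlear library for Lgr5 and 1.69 times for Lgr6. This library also had the highest summed CPM of skeletal muscle markers (237.1 CPM, compared with 2.98 to 22.3 CPM in the other 5 libraries), with all 6 markers highest in it among the cochlear libraries. The sum of supporting cell markers was 1034.2 CPM in it, compared with 854.5 and 985.7 CPM in the other cochlear libraries, with 7 of the 10 markers highest and the other 3 (Sox2, Hey2 and Ngfr) lowest in it. It was the lowest cochlear library for neuron markers (162.6 CPM, compared with 529.7 and 452.3 CPM) and melanocyte markers (31.0 CPM, compared with 58.0 and 60.0 CPM). The same held for Schwann cell markers (507.9 CPM, compared with 675.1 and 599.4 CPM). It was the highest cochlear library for cartilage and bone markers (15065.8 CPM, compared with 7905.5 and 11655.0 CPM). It was also the highest for hair cell markers (810.7 CPM, compared with 636.4 and 740.1 CPM) and dark cell markers (774.8 CPM, compared with 672.6 and 615.5 CPM). For the remaining lists it lay between the other cochlear libraries. The part of these cell types in the levels of this library was not tested. Without it the log2 fold change was -2.80 for Lgr5 and -0.96 for Lgr6, and both were still called.

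The remaining R-spondin genes and the ligases were measured beside Lgr4, Lgr5, Lgr6 and Rspo2. Of 5 such genes 4 were tested, of which Rspo1 was higher in the cochlea, Rspo3 was higher in the vestibule, and Znrf3 and Rnf43 did not pass. Rspo3 had 13.7, 8.19 and 13.0 CPM in the cochlear and 80.2, 82.4 and 87.5 CPM in the vestibular libraries, the reverse of the order seen for Rspo2. Its log2 fold change was 2.73 ± 0.19 (SE), with an adjusted p of 2.19e-05 by edgeR with Benjamini-Hochberg adjustment. Rspo1 was rare, with 46 to 77 counts in the cochlear and 3 to 26 in the vestibular libraries. It passed the filter on CPM only through the cochlear libraries, and it was no longer tested without any 1 of them. Its entry to the test thus depended on the tissue where it was high. Rspo4, with 1 to 8 counts, was not tested. In a comparison chosen after the values were seen, and so given without a test, Rspo2 held 84.9% ± 1.97 (SD, n = 3) of the summed RPKM of Rspo2 and Rspo3 in the cochlea and 10.9% ± 2.71 in the vestibule, while the sum was 31.9 ± 4.47 and 39.2 ± 0.831.

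On the log2 scale the difference was 0.45 ± 0.19 (SE) for Znrf3 with an adjusted p of 0.106, and -0.25 ± 0.20 for Rnf43 with an adjusted p of 0.39, both by edgeR with Benjamini-Hochberg adjustment. Their 95% intervals, which are not adjusted for the number of genes, were 0.03 to 0.88 and -0.69 to 0.20. Znrf3 passed only without cochlea replicate 3, at 0.60 with an adjusted p of 0.0391 by the same test.

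**Figure D4:**
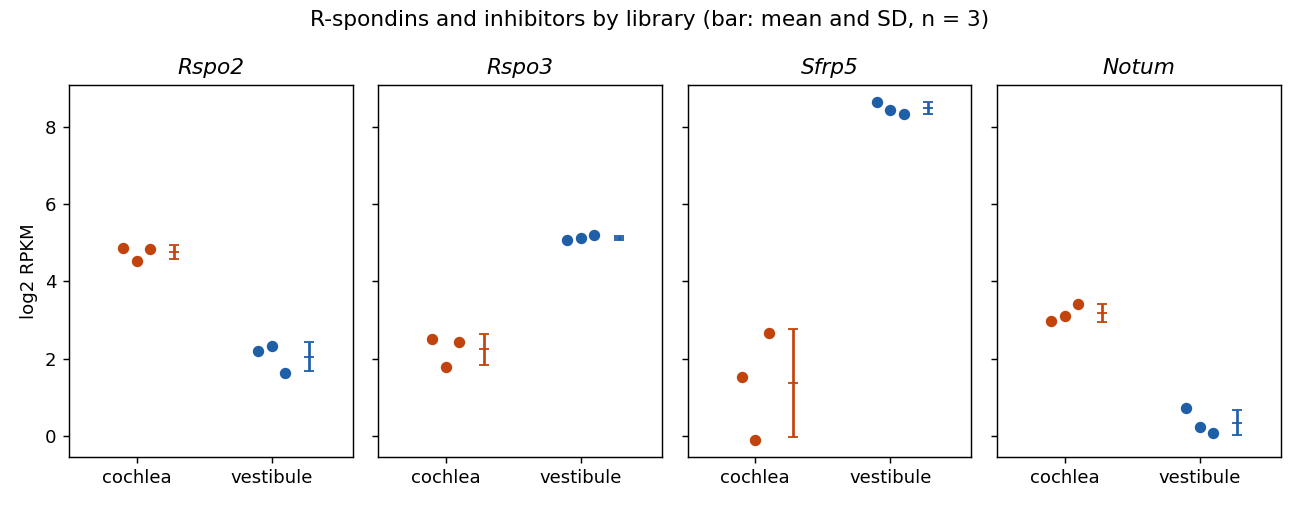
Level (log2 RPKM) of Rspo2, Rspo3, Sfrp5 and Notum in each cochlear (red) and vestibular (blue) library, with mean and SD (n = 3). Rspo2 and Notum are higher in all cochlear libraries, Rspo3 and Sfrp5 in all vestibular ones, and the cochlear values of Sfrp5 spread from -0.09 to 2.68.

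Of 14 other secreted or surface inhibitors of Wnt 10 were tested, of which 3 were higher in the cochlea and 4 in the vestibule. The largest difference was that of Sfrp5, a secreted Frizzled-related protein, which had 5.44, 1.77 and 12.1 CPM in the cochlear and 755.5, 656.6 and 609.8 CPM in the vestibular libraries. Its log2 fold change was 6.60 ± 0.60 (SE), with an adjusted p of 8.85e-05 by edgeR with Benjamini-Hochberg adjustment. It was 7.43 without cochlea replicate 3, the cochlear library with the most Sfrp5, and 6.16 was the lowest value with 1 library left out. Notum, an enzyme that removes the lipid from Wnt proteins, had 19.0, 20.9 and 25.9 CPM in the cochlear and 3.95, 2.84 and 2.55 CPM in the vestibular libraries, with a log2 fold change of -2.93 ± 0.21. Tpbg, a membrane glycoprotein that inhibits Wnt/β-catenin signalling, differed by -1.61 ± 0.12 on the log2 scale, and Apcdd1, a membrane inhibitor, by 1.0 ± 0.14. Sfrp4 (1.91 ± 0.31), 1 of the 4 called in the vestibule, had only 7 to 45 counts. It passed the filter on CPM only through the vestibular libraries, where it was high, and failed it without any 1 of them. Draxin (-0.69 ± 0.21, adjusted p of 0.039 by edgeR) overlapped between the tissues and lost its call in 5 of the 6 fits that left out a library, all but that without cochlea replicate 1, with adjusted p of 0.0676 to 0.143. Igfbp4, the remaining gene called as higher in the vestibule (0.70 ± 0.18), lost its call without cochlea replicate 2 (adjusted p of 0.0918 by edgeR) or vestibule replicate 2 (0.0714).

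With Sfrp5 added to the 3 secreted Frizzled-related proteins above, again after its values were seen and without a test, Sfrp5 held 1.17% ± 0.953 (SD, n = 3) of the summed RPKM in cochlear and 69.3% ± 3.09 in vestibular libraries. The sum was then 314.8 ± 65.0 in cochlear and 512.1 ± 33.4 in vestibular libraries, so the direction of the sum of this family turned when Sfrp5 was counted.

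Of 19 Wnt ligands 11 were tested, of which 3 were higher in the cochlea and 6 in the vestibule. Wnt3 had 2.36 to 3.07 CPM in the cochlear and 112.0 to 134.4 CPM in the vestibular libraries, with a log2 fold change of 5.41 ± 0.16 (SE). Wnt2b differed by 4.35 ± 0.36 on the log2 scale. Wnt10b, 1 of the 6, had 0, 0 and 3 counts in the cochlear and 144, 63 and 34 counts in the vestibular libraries. It passed the filter on CPM only through the vestibular libraries, where it was high, and failed it without any 1 of them. The ligands higher in the cochlea were Wnt7a (-1.35 ± 0.13), Wnt9a (-1.27 ± 0.16) and Wnt7b (-0.96 ± 0.12), each called without any 1 library as well.

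All 16 Wnt receptors were tested, of which 4 were higher in the cochlea and 3 in the vestibule. The largest log2 fold changes in the cochlear direction were those of the Frizzled receptors Fzd8 (-1.38 ± 0.14, SE), Fzd2 (-0.83 ± 0.13) and Fzd9 (-0.66 ± 0.13), and in the vestibular direction those of Ror1 (1.40 ± 0.14) and Ror2 (0.67 ± 0.15), receptors of Wnt signalling that does not use β-catenin, and of Fzd5 (0.64 ± 0.18). Without vestibule replicate 2, Fzd9 had an adjusted p of 0.0554 and Ror2 of 0.0588 by edgeR, and Fzd5 lost its call without any 1 library but cochlea replicate 3, with adjusted p of 0.0591 to 0.0929.

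Of the 19 tested genes of the β-catenin core, which transmits the signal in every receiving cell, 2 were higher in the cochlea and 1 in the vestibule. Lef1, one of the TCF/LEF factors, had a log2 fold change of -0.90 ± 0.17 (SE) with an adjusted p of 0.00431 by edgeR with Benjamini-Hochberg adjustment. Pygo1 (-0.47 ± 0.12) lost its call without vestibule replicate 2 (adjusted p of 0.122 by edgeR) or 3 (0.0627). Tcf7 (0.42 ± 0.11) lost it without cochlea replicate 1 (0.0702) or 2 (0.0512) or vestibule replicate 2 (0.0985) or 3 (0.0526). Of 6 feedback targets tested beside Axin2, Tnfrsf19 was higher in the cochlea (-1.30 ± 0.13, SE). Nkd1, an inhibitor induced by the pathway, was higher in the vestibule (0.52 ± 0.15, adjusted p of 0.0295 by edgeR), and lost its call without cochlea replicate 1 (0.101) or vestibule replicate 2 (0.127). Over these 6 lists, 66 of 79 genes were tested, of which 14 were higher in the cochlea and 16 in the vestibule. These counts include Rspo1, Sfrp4 and Wnt10b, which passed the filter on CPM only through the tissue where they were high.

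**Figure D5:**
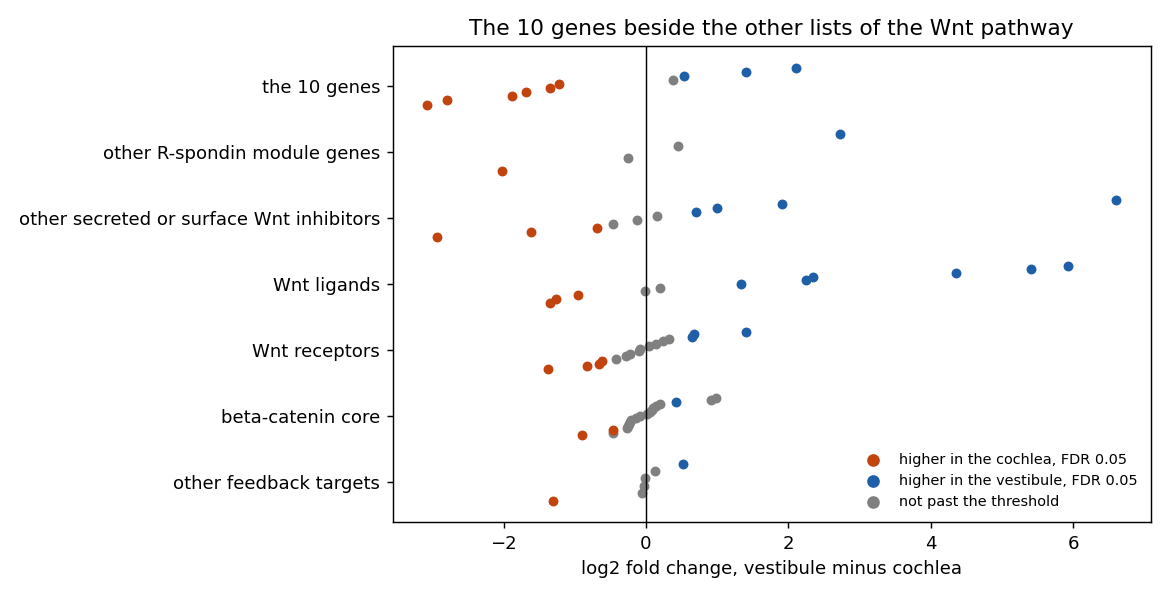
Log2 fold change (vestibule minus cochlea) of each tested gene, for the 10 genes and the 6 other lists of the pathway. The points reach from -3.07 (Lgr5) to 6.60 (Sfrp5), and 16 of the 19 core genes did not pass the test (grey).

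Marker lists were measured for the cell types that such a dissection can hold, and the summed CPM of most lists differed between the tissues without overlap, apart from neuron, cartilage and bone, and skeletal muscle markers. Hair cell markers summed to 636.4 to 810.7 CPM in the cochlear and 1107.5 to 1349.3 CPM in the vestibular libraries, with 1 of 10 higher in the cochlea and 5 in the vestibule. Supporting cell markers summed to 854.5 to 1034.2 CPM and 452.1 to 497.1 CPM, with 9 of 10 higher in the cochlea. Markers of the cochlear floor summed to 11964.4 to 14852.8 CPM and 3364.5 to 3757.9 CPM. Of these 8 markers 6 were higher in the cochlea and 1 in the vestibule. The highest of them was Tecta in the cochlear libraries (7009.9 to 9689.5 CPM). In the vestibular libraries it was Otog (1894.9 to 2345.1 CPM), the 1 called as higher there. Markers of both cell types of the labelled tissue were thus detected in all libraries. Mesenchyme markers summed to 5424.3 to 6161.4 CPM and 8292.3 to 9572.5 CPM (2 of 12 higher in the cochlea, 4 in the vestibule), endothelial markers to 73.5 to 126.0 CPM and 374.0 to 538.4 CPM (5 of 6 higher in the vestibule), and macrophage markers to 103.2 to 121.9 CPM and 406.4 to 460.5 CPM (6 of 6 higher in the vestibule). Of the other lists, neuron markers had 3 of 6 higher in the cochlea (162.6 to 529.7 CPM, compared with 103.5 to 315.7 CPM), while Schwann cell markers had 3 of 6, melanocyte markers 5 of 5, dark cell markers 3 of 4 and cartilage and bone markers 5 of 7 higher in the vestibule, the last with 1 in the cochlea and with overlapping sums (7905.5 to 15065.8 CPM, compared with 9268.6 to 12164.6 CPM), which are almost all Col2a1 (7736.0 to 14904.0 CPM and 9189.5 to 12075.5 CPM). Of 3 skeletal muscle markers tested, edgeR called 0, as did DESeq2 and limma-voom, and 1 (Acta1, named after its values were seen) had an unadjusted p below 0.05, although without the filter on CPM 2 were called in the cochlea, and without cochlea replicate 3, 1 was called in the vestibule. None of the genes in these 12 lists was at 0 in all libraries. Some of these counts rested on single libraries. Hair cell markers had 0 calls in the cochlea without cochlea replicate 1 or 2 or vestibule replicate 1 or 2, and 3 in the vestibule without cochlea replicate 1 or vestibule replicate 2. Mesenchyme markers had 1 call in the cochlea without any 1 library. Neuron markers had 1 call in the cochlea without cochlea replicate 1 or 2 or vestibule replicate 3, and 5 without cochlea replicate 3. In the vestibule, endothelial markers had 3 calls without cochlea replicate 2, and melanocyte markers had 3 without any 1 vestibular library. Mlana and Tyrp1, the melanocyte markers not called there, then failed the filter on CPM and were not tested. The part of these cell types in the differences of the 10 genes was not tested.

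For each of the 10 genes, the tested genes with the most similar pattern were found by the root mean square (RMS) difference of log2 CPM over the 6 libraries, each gene centred on its own mean. The closest match was that of Lgr4 with Gpc3 (RMS of 0.032), a glypican, followed by Tob2 (0.037). Axin2 was closest to 2900026A02Rik (0.039) and Srrm1 (0.062), Frzb to Ltbp1 (0.060) and Iqcg (0.062), Sfrp1 to Pcsk6 (0.071) and Efemp1 (0.141), Dkk3 to Zdhhc14 (0.077) and Fam102b (0.082), and Sfrp2 to Tulp1 (0.096) and Dpysl2 (0.1). The patterns of Rspo2, with Alox8 (0.111) and Papss2 (0.123), of Lgr6, with Mdm1 (0.120), of Lgr5, with A830082K12Rik (0.14) and Scara3 (0.172), and of Wif1, with Ncf1 (0.148) and Maats1 (0.157), had less close matches. Among the 10 genes themselves, the closest pairs were Sfrp2 with Dkk3 (0.229) and Sfrp1 with Dkk3 (0.235), and Lgr5 and Rspo2 were each other's nearest (0.295). The measure takes in the difference between the tissues, so a close match can reflect a similar fold change alone. Some matches were at low levels, such as Alox8 (mean of 2.91 CPM), Tulp1 (3.13 CPM), Ncf1 (4.21 CPM) and Maats1 (5.44 CPM).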

How the data were processed

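RNA-seq was made by the authors from cochlear and vestibular sensory epithelium with a stranded mRNA kit, in 3 libraries per tissue. The authors aligned the reads to GRCm38 and deposited raw counts per Ensembl gene, with no normalization; the submitters' processing notes name TopHat2 2.1.0, SAMtools 0.1.18, HTSeq 0.5.4p5 and edgeR 3.4.2. The authors also deposited a matrix of log2 RPKM, whose gene lengths, worked out from the counts, were constant to within 0.02 on the log2 scale for 14708 of 14708 genes. It was used for levels of different genes and for shares. The 5 summary lines of each count table, 18.5% to 20.6% of all listed counts, stayed out of library sizes and tests.

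The filter kept genes that reached 1 CPM in at least 3 libraries. They were fitted in edgeR 4.0.16 (R 4.3.3) with TMM scaling and tissue as the only term, and its quasi-likelihood test was adjusted over all genes by Benjamini-Hochberg. The procedure was tested on simulated data. CPM are not TMM-scaled, and fold changes are. DESeq2 1.42.0, limma-voom (limma 3.58.1), other scalings and filters, a replicate block and leaving out each library were tried as alternatives. Shares were compared with two-sided exact permutation tests. Patterns used log2 CPM with a prior count of 0.5.

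The 10 genes, the other lists of the pathway and the markers were chosen with earlier results of these data known. Named from each list were the 3 genes called in each direction with the largest change, the partners Rspo1, Rspo3, Znrf3, Rnf43, Lef1 and Nkd1, and for each of the 10 genes the 2 with the nearest pattern. Of these, 1 gene is not reported here. Igfbp4 and Rspo4 were named after their values were seen. Positions are from GENCODE vM21 and sequences from RefSeq, both on GRCm38. With 3 libraries per tissue, single outlying libraries were not tested.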

Additional observations from a re-analysis of the deposited data

How the results depend on the processing

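The 6 calls in the cochlea and those of Frzb and Wif1 in the vestibule were made under all 13 alternatives, none of the 10 genes changed direction, and Axin2 was not called under any. Lgr4 lost its call under 2 of the 13. Over all genes, leaving out 1 library gave 925 to 1863 calls in the cochlea (1711 with all) and 1341 to 2694 in the vestibule (2325 with all), both lowest without vestibule replicate 2. Other omissions lowered a count more than 1.5 times, that of cochlea replicate 2 to 1034 cochlear calls, that of vestibule replicate 1 to 1522 vestibular calls. Library size alone moved the median over all genes, on the log2 scale, from 0.00 to 0.13.

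The replicate numbers are shared by the tissues, but the deviations of same-numbered libraries did not go together (r of -0.175, -0.26 and -0.474). With 3 libraries per tissue these values cannot exclude a pairing, and the methods name none. With a replicate block 1009 genes were called in the cochlea, Lgr4 had a log2 fold change of 0.53 with an adjusted p of 0.0764 (edgeR) and was not called, and the R-spondin genes and ligases had 0 calls in the cochlea, the β-catenin core 1 in the cochlea and 0 in the vestibule, and the feedback targets 0 in the vestibule. Under the block, calls in the cochlea went from 1 to 0 for hair cell markers and from 2 to 1 for mesenchyme markers. No further count moved beyond 1.5 times with it.

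Leaving out 1 library gave log2 fold changes of 0.49 to 0.60 for Lgr4. It gave 0 to 1 calls in the cochlea and 1 to 2 in the vestibule for the R-spondin genes and ligases, 2 to 4 in the vestibule for the other inhibitors, 2 to 4 and 1 to 3 for the receptors, 1 to 2 and 0 to 3 for the β-catenin core, and 0 to 1 in the vestibule for the feedback targets. Rspo1 left the test without a cochlear library. The β-catenin core had 1 call in the cochlea with library size alone, and in the vestibule 3 with DESeq2 and 2 without the filter on CPM, under which 10 ligands were called in the vestibule. Mesenchyme markers had 1 call in the cochlea with library size alone or without the filter, and hair cell markers 2 there with DESeq2. The cause of these shifts was not tested.

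Adding 1 to the RPKM before the log raised the mean level of Lgr4 to 3.71 in the cochlea and 4.32 in the vestibule, and in the vestibule that of Lgr5 to 0.92 and of Lgr6 to 2.08. With shares of summed CPM, which do not correct for gene length, Lgr5 held 41.2% and 6.83% (cochlea, vestibule), Lgr6 15.5% and 9.25%, Sfrp1 89.1% and 57.9%, Sfrp2 4.82% and 4.43%, and Frzb 6.12% and 37.7%, in the same directions. Low counts limit Rspo1, Rspo4, Sfrp4 and Wnt10b.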
